A study of Mus musculus with 6 samples.

Results

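Interferon-stimulated genes are the genes that cells switch on when interferon reaches them, and 41 of them, listed by name from the type I and type II interferon responses, were followed in mouse liver tumors driven by MYC. The members were taken by gene symbol from a table of 47643 gene rows, each symbol stood on a single row, and all 41 were among the 17012 genes kept by the filter on low counts. The FVB/N mice carried 2 transgenes, LAP-tTA and tetO-MYC: a promoter active in hepatocytes drives a tetracycline-controlled activator, which in turn drives MYC. All 6 libraries share this transgene in the switched-on state. Doxycycline in the drinking water (100 mg/L) held MYC off until 4 weeks of age, and MYC was then on for 8 weeks before dosing. The mice next received vehicle (3 libraries) or, at 50 mg/kg/day, the PRMT5 inhibitor GSK3326595 (3 libraries), in both cases over 2 weeks. PRMT5 is an enzyme that methylates arginines in proteins. The comparison asks how the inhibitor alters expression of these genes in the tumors. Whether the replicates are separate animals is not stated in the labels, and p-values therefore reflect only how these samples vary, which may be technical.

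Interferons of type I signal through IFNAR1 and IFNAR2, and interferon gamma, the type II interferon, through IFNGR1 and IFNGR2. Janus kinases on these receptors phosphorylate STAT proteins. STAT complexes that hold STAT2 and IRF9 bind the interferon-stimulated response element, and other STAT complexes bind the gamma-activated site. The targets include antiviral effectors, sensors of foreign RNA, further transcription factors that widen the response, and GTPases that attack intracellular microbes. In liver, hepatocytes, macrophages, endothelial cells and infiltrating lymphocytes can all respond. In these bulk samples, fewer cells of a type and less RNA per cell cannot be told apart.

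The members share promoter letters that the choice of names did not use. The 250 bases before each RefSeq start (build GRCm38.p6) were searched on both strands for GAAANNGAAA, a core of the interferon-stimulated response element, and for TTCNNNGAA, a core of the gamma-activated site. A promoter was in the table for 32 of the 41 members, and 18 of these 32 (56.2%) held the response element core, against 936 of all 27025 genes in the promoter table (3.46%). The gamma-activated core was in 9 of the 32 (28.1%), against 8.13% of all genes, and both cores were in 6 (18.8%), against 0.459%. A match describes letters in this window only and is not a measured site. By role, the response element core was in 7 of 8 GBP and IRG GTPases, 3 of 4 IFIT genes, 3 of 5 OAS genes and 3 of 8 other antiviral effectors, but in 1 of 4 transcription factors and 0 of 2 RNA sensors. The windows printed next hold the core nearest the start in some of the members that have one. The 14 members that held no such core were Irf1, Irf7, Irf9, Ifih1, Ddx58, Oasl1, Oasl2, Ifit2, Cmpk2, Eif2ak2, Xaf1, Ifi44, Ifi35 and Ifi47. The 9 members without a promoter in the table were Usp18, Zbp1, Mx1, Mx2, Oas2, Parp14, Dhx58, Rtp4 and Iigp1. Capitals mark the core, and each window is read 5′ to 3′ on the strand on which the core reads GAAANNGAAA, the same as the gene's or the opposite one.
Isg15, chr4:156200865-156200894, same strand, 56 bases before the start: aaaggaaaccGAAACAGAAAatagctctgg
Ifit1, chr19:34640794-34640823, opposite strand, 75 bases before the start: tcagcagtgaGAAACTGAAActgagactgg
Ifit3, chr19:34583397-34583426, opposite strand, 112 bases before the start: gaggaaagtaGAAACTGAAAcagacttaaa
Ifit3b, chr19:34607793-34607822, opposite strand, 144 bases before the start: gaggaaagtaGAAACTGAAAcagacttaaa
Rsad2, chr12:26456553-26456582, opposite strand, 110 bases before the start: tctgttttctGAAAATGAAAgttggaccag
Stat2, chr10:128270266-128270295, opposite strand, 212 bases before the start: ctagggaaagGAAACTGAAAccagggtgcg
Gbp2, chr3:142620594-142620623, opposite strand, 49 bases before the start: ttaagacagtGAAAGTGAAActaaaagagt
Gbp3, chr3:142559995-142560024, opposite strand, 29 bases before the start: agggatctggGAAATAGAAActgaaactgt
Gbp5, chr3:142496759-142496788, opposite strand, 155 bases before the start: tctctaaactGAAATTGAAActacacaagt
Gbp7, chr3:142530273-142530302, opposite strand, 43 bases before the start: atggagaactGAAACTGAAActgcacacac
Igtp, chr11:58199512-58199541, same strand, 24 bases before the start: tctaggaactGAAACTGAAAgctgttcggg
Irgm1, chr11:48871425-48871454, same strand, 14 bases before the start: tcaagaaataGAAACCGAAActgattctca

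The windows of Ifit3 and Ifit3b are identical over all their letters, as was the other core window of this pair, and reads of these near-identical genes may be split uncertainly between them. Core windows of Igtp and Irgm2, and those of Oas1a and Oas1g, were nearly the same within each pair. The counts of members with the core therefore include near-copies. Promoters of 2 members are shown whole because they hold several cores. That of Isg15 carries 3 response element cores that overlap each other, and that of Gbp7 carries 1 response element core and 2 gamma-activated cores. Capitals mark every core, and both are read on the gene's strand.
Isg15, chr4:156200819-156201068, minus strand: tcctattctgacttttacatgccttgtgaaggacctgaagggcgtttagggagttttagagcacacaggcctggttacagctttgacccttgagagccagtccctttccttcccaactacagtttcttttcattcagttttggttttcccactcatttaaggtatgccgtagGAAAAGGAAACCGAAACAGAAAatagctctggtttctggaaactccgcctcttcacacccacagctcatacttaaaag
Gbp7, chr3:142530086-142530335, plus strand: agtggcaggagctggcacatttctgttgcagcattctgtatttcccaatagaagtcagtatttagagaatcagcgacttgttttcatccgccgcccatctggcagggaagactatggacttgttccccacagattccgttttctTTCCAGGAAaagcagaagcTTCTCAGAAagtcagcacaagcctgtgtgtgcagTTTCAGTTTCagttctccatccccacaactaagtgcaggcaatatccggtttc

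Most members had higher values in GSK3326595, but no member passed the test. The level of a gene is given as CPM, its count relative to the TMM-scaled library total, and libraries are listed in the order replicate 1, 2, 3. A log2 difference is GSK3326595 minus vehicle, with its SE. Of the 41 members, 31 (75.6%) had a log2 difference above 0, against 53.1% of all genes tested, and the median member differed by 0.42 against 0.03 for all genes. By edgeR's quasi-likelihood test, 0 members had an adjusted p under 0.05, as did 0% of all genes, and the smallest adjusted p among members was 0.491, for Gbp3. DESeq2 called 0 members as well, beside 1.1% of genes higher and 0.591% lower, and limma-voom called 0. At an unadjusted edgeR p under 0.05, 3 members were higher (Gbp2, Gbp3 and Gbp5; 7.32%), where 5.45% of all genes were, and 1 was lower (Usp18; 2.44%), where 3.81% were. These shares are near the background and are no result about the members. The 3 GSK3326595 libraries all lay above the 3 vehicle libraries in the same 3 members (7.32%), against 6.72% of all genes, and all below in 0, against 7.66%.

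**Figure D1:**
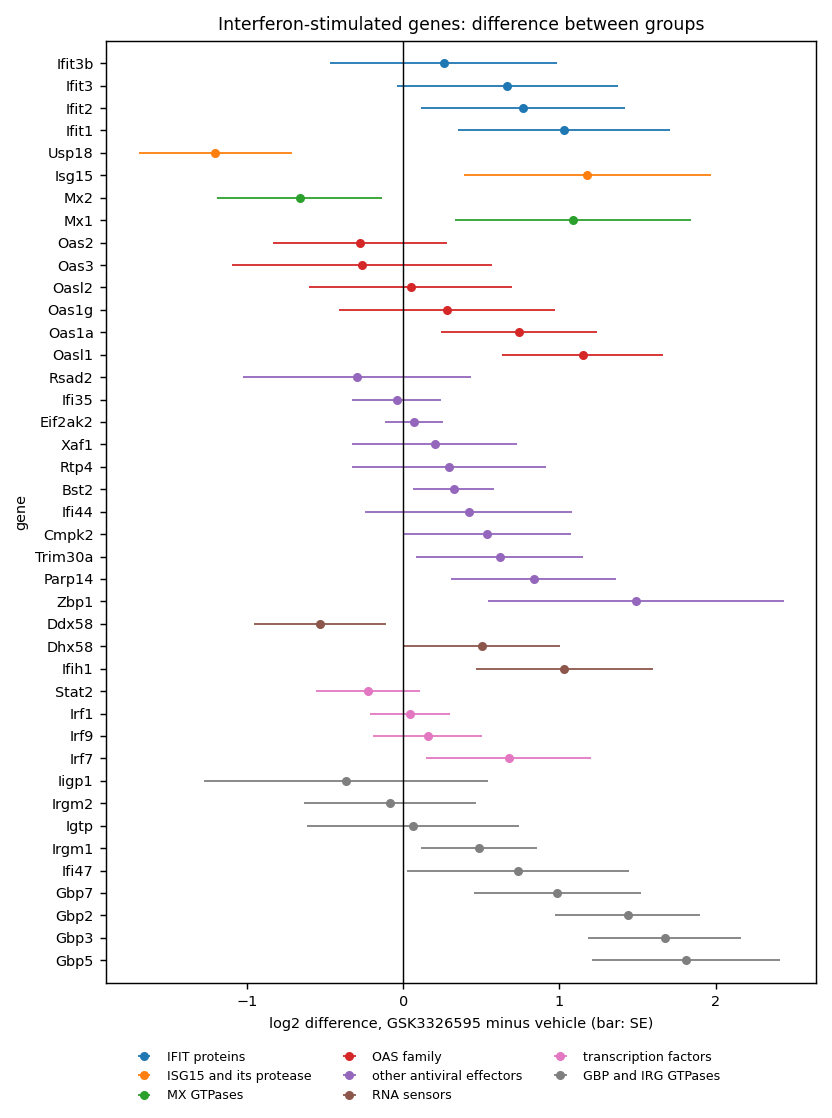
Log2 difference between GSK3326595 and vehicle (horizontal axis) for each of the 41 interferon-stimulated genes (vertical axis), coloured by role. Points are edgeR estimates and bars their SE; Gbp5 is highest at 1.81, Usp18 lowest at -1.20, and 31 points lie right of 0.

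The members varied more from library to library than between the group means. GSK3326595 replicate 1 had the highest CPM of all 6 libraries in 22 members and GSK3326595 replicate 2 in 9, whereas vehicle replicate 1 and GSK3326595 replicate 3 each had the lowest in 20. Measured against each member's mean over the 6 libraries, the median member stood at -0.89, 0.31 and -0.01 (log2) in the vehicle libraries and at 0.73, 0.55 and -0.80 in the GSK3326595 libraries. GSK3326595 replicates 1 and 2 both exceeded all vehicle libraries in 21 members (51.2%), against 15.7% of all genes tested. GSK3326595 replicate 3 lay below all vehicle libraries in 20 members (48.8%), against 34% of all genes. In 40 of 41 members the range within the GSK3326595 group was wider than the difference between the group means on the log2 CPM scale, as in 87% of all genes. The median member had an SD of 0.65 log2 units between vehicle libraries and 0.923 between GSK3326595 libraries, against 0.255 and 0.433 for the median of all genes.

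**Figure D2:**
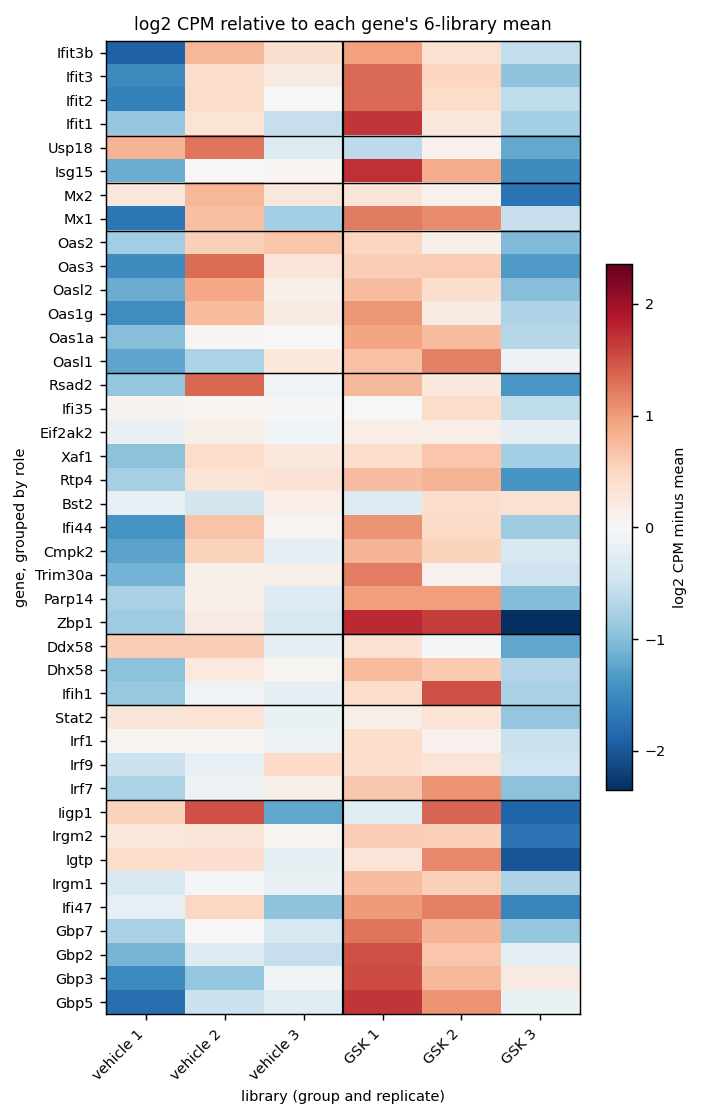
Each row is a member, grouped by role, each column a library, and colour gives log2 CPM minus that gene's mean over the 6 libraries (red above, blue below). The columns of vehicle replicate 1 and GSK3326595 replicate 3 hold the lowest value in 20 members each, and GSK3326595 replicate 1 the highest in 22.

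Leaving out single libraries moved the picture in both directions. The median member's log2 difference was 0.05 without GSK3326595 replicate 1, where 25 of 41 members were higher, and 0.18 without vehicle replicate 1, also with 25. It was 0.81 without GSK3326595 replicate 3, where 38 were higher and 13 had an unadjusted edgeR p under 0.05, beside 9.25% of all genes there. Those 13 were Isg15, Oas1a, Oasl1, Zbp1, Parp14, Ifih1, Irf7, Gbp2, Gbp3, Gbp5, Gbp7, Irgm1 and Ifi47. Without vehicle replicate 2 the median was 0.72 with 34 higher. Over the 6 fits that each leave out a library, 22 members were higher every time, 3 were lower every time and 16 changed direction.

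**Figure D3:**
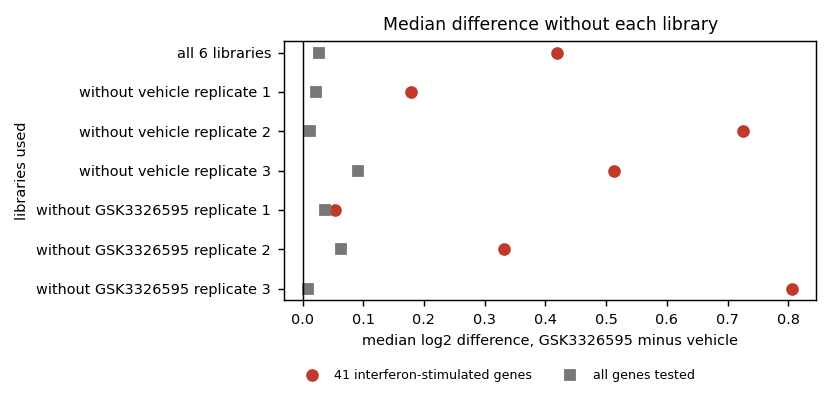
Median log2 difference (horizontal axis) of the 41 members (circles) and of all genes tested (squares), with all 6 libraries and without each library in turn (vertical axis). The circles run from 0.05 without GSK3326595 replicate 1 to 0.81 without GSK3326595 replicate 3, while the squares stay between 0.01 and 0.09.

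Among the transcription factors of the pathway, 3 of 4 members had higher values, with a median log2 difference of 0.10. Without GSK3326595 replicate 1 it was 1 of 4, with a median of -0.09. Stat2, a STAT of the type I response (chr10:128270559-128292849, plus strand), had 48.3, 49.6 and 35.5 CPM in vehicle and 43.55, 49.2 and 21.1 CPM in GSK3326595. Its GSK3326595 replicate 3 was the lowest of all and the groups otherwise overlapped (-0.23 ± 0.33, edgeR adjusted p = 0.890). Irf9, the DNA-binding partner of the STATs, had 12.55, 15.6 and 24.8 CPM in vehicle and 23.8, 22.4 and 12.9 CPM in GSK3326595, and its groups overlapped throughout (0.16 ± 0.35). Irf1, a factor induced mainly by interferon gamma (chr11:53770014-53778374, plus strand), had 33.3, 33.2 and 29.3 CPM in vehicle and 42.3, 34.1 and 22.15 CPM in GSK3326595. Its vehicle libraries lay close together, inside the range of the treated ones (0.04 ± 0.26, edgeR adjusted p = 0.977). Irf7, which amplifies production of type I interferon, had 4.97, 7.65 and 9.16 CPM in vehicle and 13.1, 17.5 and 4.22 CPM in GSK3326595. GSK3326595 replicates 1 and 2 were above, and replicate 3 below, every vehicle library (0.68 ± 0.53, edgeR adjusted p = 0.735).

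The cytosolic RNA sensors did not share a direction. Ifih1, which encodes MDA5 and detects long double-stranded RNA (chr2:62595798-62646255, minus strand), had 6.28, 10.99 and 10.1 CPM in vehicle and 15.5, 33.6 and 6.85 CPM in GSK3326595. GSK3326595 replicate 2 stood far above the rest, replicate 1 was next, and replicate 3 lay among the vehicle libraries (1.03 ± 0.57, edgeR adjusted p = 0.626). Ddx58, which encodes RIG-I, a sensor of RNA ends, had 57.95, 58.0 and 33.1 CPM in vehicle and 48.8, 37.8 and 16.5 CPM in GSK3326595. Here the values were lower in GSK3326595, led by replicate 3, and the groups overlapped (-0.53 ± 0.42, edgeR adjusted p = 0.741). Dhx58, which encodes LGP2, a regulator of the other sensors, differed by 0.50 ± 0.50 with group means of 2.26 ± 0.898 CPM against 3.205 ± 1.47 CPM (SD, n = 3 each). It overlaps an annotated antisense gene, Dhx58os, and no source used here states the strand setting of the counting.

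The 4 IFIT genes, whose proteins bind foreign RNA and block its translation, lie side by side on chromosome 19 and had higher group means in GSK3326595, with a median log2 difference of 0.72. That median was 0.07 without GSK3326595 replicate 1 and 0.31 without vehicle replicate 1, with 3 of 4 higher in each. Ifit1 (chr19:34640871-34650009, plus strand) had 1.53, 3.71 and 1.999 CPM in vehicle and 9.57, 3.504 and 1.66 CPM in GSK3326595. Only GSK3326595 replicate 1 exceeded every vehicle library (1.03 ± 0.68, edgeR adjusted p = 0.684), and the log2 difference was 0.10 without it. Ifit3 had 0.7965, 3.16 and 2.745 CPM in vehicle and 6.06, 3.38 and 1.19 CPM in GSK3326595, with vehicle replicate 1 the lowest (0.67 ± 0.71). Ifit2 and Ifit3b differed by 0.77 ± 0.65 and 0.26 ± 0.73. Counts of Ifit3 and Ifit3b were not whole numbers in all 6 libraries, as happens where reads are shared between genes.

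Isg15 and Usp18, which act on the same modification, pointed in opposite directions. Isg15, a ubiquitin-like protein attached to other proteins (chr4:156199424-156200818, minus strand), had 0.637, 1.53 and 1.58 CPM in vehicle and 5.16, 2.82 and 0.505 CPM in GSK3326595. GSK3326595 replicates 1 and 2 were the highest and replicate 3 the lowest of all 6 (1.18 ± 0.79, edgeR adjusted p = 0.689). Usp18, the protease that removes ISG15 and damps signalling at the type I receptor (chr6:121245906-121270917, plus strand), had 24.25, 33.6 and 11.25 CPM in vehicle and 9.06, 14.95 and 6.025 CPM in GSK3326595. Vehicle replicates 1 and 2 were the highest, and vehicle replicate 3 lay within the range of the treated libraries. Its log2 difference of -1.20 ± 0.49 had an unadjusted edgeR p of 0.0453 and an edgeR adjusted p of 0.533, and the unadjusted p ranged from 0.0118 to 0.155 without each library. Usp18 overlaps Gm44148, a gene annotated on the other strand. The enzymes that attach ISG15 had higher group means in all 3 genes (Uba7, Ube2l6 and Herc6, median log2 difference 0.74). Without GSK3326595 replicate 1 the median was 0.42, with 3 of 3 still higher. Ube2l6 had 104.4 CPM in GSK3326595 replicate 1 but 31.7 CPM in replicate 3, below all vehicle libraries. Herc6, the ligase, had 5.002, 7.415 and 8.71 CPM in vehicle and 20.6, 27.5 and 8.95 CPM in GSK3326595. All its treated libraries lay above the vehicle ones, GSK3326595 replicate 3 by a small margin (1.43 ± 0.45, edgeR adjusted p = 0.504).

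The MX GTPases, which block viral replication complexes, also split. Mx1 had 0.414, 2.48 and 0.835 CPM in vehicle and 3.58, 3.32 and 1.01 CPM in GSK3326595. The 2 highest values were those of GSK3326595 replicates 1 and 2, while replicate 3 lay among the vehicle libraries (1.09 ± 0.75, edgeR adjusted p = 0.700). Mx2 had 5.83, 8.30 and 5.82 CPM in vehicle and 5.996, 5.18 and 1.41 CPM in GSK3326595, where GSK3326595 replicate 3 stood far below the rest and replicates 1 and 2 lay near the vehicle libraries (-0.66 ± 0.53). Both lie on chromosome 16.

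The OAS family makes short oligoadenylates that activate the ribonuclease RNase L, and its 6 members form a pair of clusters on chromosome 5. Of these, 4 had higher values and 2 lower, with a median log2 difference of 0.17. The direction turned without vehicle replicate 1 (2 of 6 higher, median -0.25) and without GSK3326595 replicate 1 (2 of 6, median -0.29). Oas1a had 1.94, 4.05 and 3.94 CPM in vehicle and 7.61, 6.54 and 2.45 CPM in GSK3326595, with GSK3326595 replicates 1 and 2 above all vehicle libraries (0.74 ± 0.50, edgeR adjusted p = 0.690). Oasl1, a family member without synthetase activity that represses translation of Irf7, had the highest difference of the family, 1.15 ± 0.52, with group means of 2.03 ± 1.14 CPM against 4.51 ± 1.94 CPM (SD, n = 3 each; edgeR adjusted p = 0.552). Oasl2 had 0.956, 4.22 and 2.42 CPM in vehicle and 3.74, 3.01 and 1.08 CPM in GSK3326595 and showed no separation (0.05 ± 0.65). Oas2 and Oas3 had negative differences of -0.28 ± 0.56 and -0.26 ± 0.83, and Oas1g differed by 0.28 ± 0.69. Counts of Oas1a and Oas1g, close copies of each other, were not whole in any library.

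Of the 11 other antiviral effectors, 9 had higher values, with a median log2 difference of 0.32. The median was 0.02 without vehicle replicate 1 (7 higher) and 0.04 without GSK3326595 replicate 1 (8 higher). Zbp1, a sensor of left-handed nucleic acids that can trigger cell death (chr2:173206612-173218923, minus strand), had 0.637, 1.36 and 0.895 CPM in vehicle and 4.16, 3.78 and 0.1804 CPM in GSK3326595. It spanned the members' widest range, since GSK3326595 replicates 1 and 2 were the highest and replicate 3 the lowest (1.49 ± 0.95, edgeR adjusted p = 0.671). Parp14, a mono-ADP-ribosyltransferase, had 19.9, 36.7 and 27.4 CPM in vehicle and 66.8, 66.6 and 16.5 CPM in GSK3326595, with the same order of the treated libraries (0.84 ± 0.53). Rsad2, which encodes viperin and makes a chain-terminating nucleotide, had 1.975, 9.63 and 3.55 CPM in vehicle and 6.415, 4.496 and 1.41 CPM in GSK3326595. Vehicle replicate 2 was the highest there and the difference was negative (-0.30 ± 0.73). Its neighbour on chromosome 12, Cmpk2, a mitochondrial nucleotide kinase, differed by 0.54 ± 0.54. Bst2, the membrane protein tetherin that holds budding virus at the cell surface, had 42.3, 35.7 and 53.97 CPM in vehicle and 38.6, 64.6 and 61.8 CPM in GSK3326595. Its pattern was unlike the others, for GSK3326595 replicate 1 was below vehicle replicate 1 and replicate 3 was among the highest (0.32 ± 0.26). Eif2ak2, the kinase PKR that stops translation on double-stranded RNA, had similar group means of 28.4 ± 3.08 CPM against 29.8 ± 4.20 CPM (SD, n = 3 each; 0.07 ± 0.19). Differences for the rest were 0.62 ± 0.53 for Trim30a, 0.42 ± 0.66 for Ifi44, 0.29 ± 0.62 for Rtp4, 0.20 ± 0.53 for Xaf1 and -0.04 ± 0.28 for Ifi35.

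The guanylate-binding proteins on chromosome 3, GTPases that coat and disrupt the vacuoles of intracellular microbes, held 3 of the 4 highest log2 differences among the members. Gbp2 (chr3:142620602-142638008, plus strand) had 8.19, 14.2 and 12.02 CPM in vehicle and 50.6, 27.6 and 14.9 CPM in GSK3326595. Every treated library exceeded every vehicle library, replicate 3 by little (1.44 ± 0.46, edgeR adjusted p = 0.520). Gbp3 (chr3:142560026-142573209, plus strand) had 2.68, 4.05 and 7.13 CPM in vehicle and 22.3, 13.02 and 8.875 CPM in GSK3326595, again without overlap (1.67 ± 0.49, edgeR adjusted p = 0.491). Gbp5, which also assembles inflammasome complexes (chr3:142493978-142522344, plus strand), had 0.637, 1.63 and 1.91 CPM in vehicle and 7.64, 4.96 and 2.09 CPM in GSK3326595 (1.81 ± 0.60, edgeR adjusted p = 0.522). GSK3326595 replicate 3 and vehicle replicate 3 were nearly level in Gbp5. The unadjusted edgeR p was 0.0184 for Gbp2, 0.0118 for Gbp3 and 0.0205 for Gbp5. The DESeq2 adjusted p of Gbp3 was 0.0503, just outside the threshold, and those of Gbp5 and Gbp2 were 0.104 and 0.109. Without each library in turn, Gbp3 kept a log2 difference from 1.24 to 2.16 and an unadjusted edgeR p from 0.0051 to 0.0399. Gbp2 had an unadjusted edgeR p of 0.062 without vehicle replicate 1 and 0.0563 without GSK3326595 replicate 1, and Gbp5 of 0.0538 and 0.0722. Gbp7 had 6.63, 11.2 and 8.62 against 26.85, 19.5 and 5.95 CPM in vehicle and GSK3326595 and overlapped through replicate 3 (0.99 ± 0.53).

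The immunity-related GTPases, which also act on microbial vacuoles, had log2 differences on either side of 0. Igtp (chr11:58199556-58207591, plus strand) had 30.3, 29.9 and 19.8 CPM in vehicle and 28.1, 49.8 and 5.63 CPM in GSK3326595. Among the treated libraries replicate 2 was the highest of all and replicate 3 the lowest of all, so the means nearly matched (0.06 ± 0.68, edgeR adjusted p = 0.988). Irgm2 differed by -0.08 ± 0.55. It overlaps Igtp on the same strand, and counts of both were not whole in any library, so their split is uncertain. Irgm1, a regulator of the other IRG proteins, had 24.6, 30.75 and 28.4 CPM in vehicle and 51.9, 46.2 and 19.05 CPM in GSK3326595, with replicates 1 and 2 above and replicate 3 below the vehicle range (0.49 ± 0.37). Iigp1 had 43.5, 86.03 and 12.9 CPM in vehicle and 24.6, 77.6 and 8.12 CPM in GSK3326595. Its vehicle libraries were spread widely, and vehicle replicate 2 was the highest of all (-0.37 ± 0.91). Ifi47 differed by 0.73 ± 0.71.

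**Figure D4:**
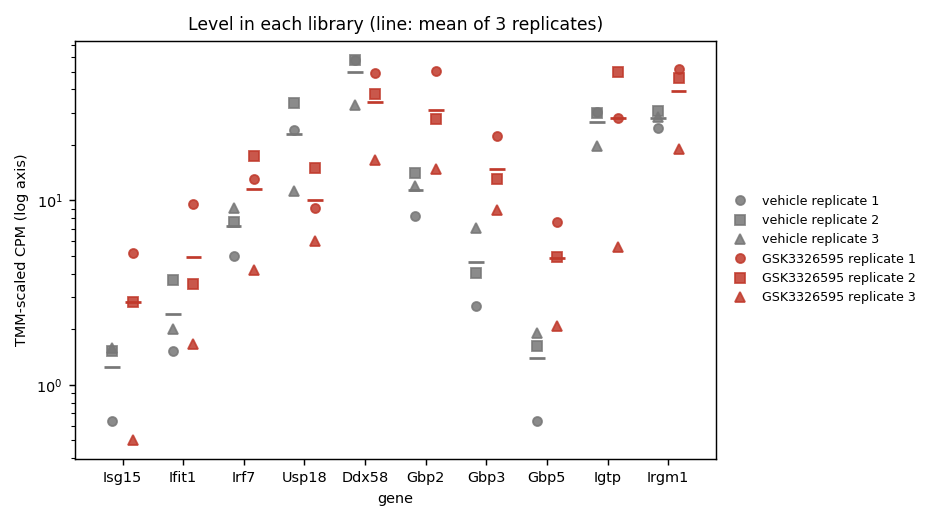
TMM-scaled CPM on a log axis (vertical) for 10 members (horizontal), with vehicle in grey, GSK3326595 in red, a symbol for each replicate and a line at each group's mean of 3. Gbp2, Gbp3 and Gbp5 show no overlap between the groups, and the GSK3326595 replicate 3 triangle is the lowest point in Isg15, Irf7, Usp18, Ddx58, Igtp and Irgm1.

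Levels were compared between members per length, as mean CPM per kilobase of annotated exons. Bst2 was the most abundant, with 48.7 in vehicle and 60.9 in GSK3326595, followed in both groups by Igtp (13.2 and 13.8). Ifi35 had 10.1 and 9.85, above Gbp2 in vehicle (4.56) and below it in GSK3326595 (12.3). On the same scale the values were 1.65 and 3.74 for Isg15, 0.908 and 1.85 for Ifit1 and 0.329 and 0.696 for Mx1. Oas3 was the least abundant, with 0.144 and 0.119. Usp18 (8.26) and Ddx58 (7.045) stood above Gbp2 in vehicle, as did Iigp1, Irf1, Stat2, Irgm2, Eif2ak2 and Irgm1. Where a promoter was in the table, the 18 members with the response element core had a median log2 difference of 0.55 (from -0.30 to 1.81) and the 14 without it 0.31 (from -0.53 to 1.15), ranges that overlap widely.

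Transcripts of the interferons themselves were at or near 0. Of 21 ligand genes, 15 had no count in any library, Ifnb1 among them, and a count of 0 allows up to 3 counts, or from 0.0895 to 0.108 CPM in these libraries. Ifng had 1, 0 and 0 counts in vehicle and 2, 5 and 0 counts in GSK3326595, 5 of the 6 libraries being at or under 3 counts, so no difference was detectable at this depth. Only Ifnk, an epithelial type I interferon, passed the filter, with 0.924, 1.599 and 1.16 CPM in vehicle and 0.838, 0.806 and 1.05 CPM in GSK3326595 (-0.45 ± 0.34, edgeR adjusted p = 0.729). Of the receptors and Janus kinases, 8 of 9 were higher with a median log2 difference of 0.15 and 0 at an unadjusted edgeR p under 0.05. Without GSK3326595 replicate 1 the direction turned, with 3 of 9 higher and a median of -0.24. Ifnar1 had 61.97, 72.96 and 54.3 CPM in vehicle and 92.2, 54.7 and 46.0 CPM in GSK3326595 (0.03 ± 0.29), and Ifngr1 had 29.4, 43.98 and 32.6 CPM in vehicle and 53.35, 26.1 and 30.45 CPM in GSK3326595 (0.05 ± 0.32). In both genes GSK3326595 replicate 1 was the highest library and the other treated libraries lay among or below the vehicle ones.

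Irf8, a factor of myeloid and dendritic cells, had 11.1, 17.1 and 12.7 CPM in vehicle and 57.15, 30.6 and 21.6 CPM in GSK3326595, without overlap (1.42 ± 0.39, edgeR adjusted p = 0.483). Among 13 genes of nucleic acid sensing, 9 were higher (median 0.51), 2 with an unadjusted edgeR p under 0.05 (5.45% of all genes) and 1 lower with such a p (3.81% of all genes). The 2 became 0 without vehicle replicate 1 (1.97% of all genes there) or without GSK3326595 replicate 1 (5.06%). Without GSK3326595 replicate 3 they became 5 (9.25% of all genes there). Tlr9, an endosomal DNA sensor, differed by 1.26 ± 0.44, Mb21d1, which encodes the DNA sensor cGAS, by 1.74 ± 0.70, and Ticam1, the adaptor of TLR3, by -0.75 ± 0.28, with edgeR adjusted p of 0.522, 0.533 and 0.522. Feedback inhibitors showed 1 of 5 higher (median -0.10), and 3 of 5 without GSK3326595 replicate 2 (median 0.12) or replicate 3 (median 0.01). Socs1, which blocks Janus kinases, had 0.542, 0.374 and 0 CPM in vehicle and 0.322, 0.279 and 0.144 CPM in GSK3326595, too few counts to compare closely (-0.27 ± 1.02).

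Further interferon targets outside the members were set beside them, in lists chosen with earlier results of these data known. Of 38 further type I targets, 32 were higher with a median log2 difference of 0.59, 4 with an unadjusted edgeR p under 0.05 (10.5%, against 5.45% of all genes) and 0 lower with such a p. Those 4 were Ms4a4c (1.83 ± 0.49), Epsti1 (1.46 ± 0.48), Slfn9 (3.15 ± 1.14) and Ifitm3 (1.71 ± 0.71), each with an edgeR adjusted p above 0.4. Slfn9 had 2.45, 2.18 and 3.61 CPM in vehicle and 4.71, 64.8 and 3.896 CPM in GSK3326595, so a single library held its difference. Without GSK3326595 replicate 3 the 4 became 15, where 9.25% of all genes were higher with such a p. Without vehicle replicate 1 they became 1, where 1.97% of all genes were. Of 12 further type II targets tested, of 14 fixed, 11 were higher with a median of 1.93. Of the 12, 8 (66.7%, against 5.45% of all genes) were higher with an unadjusted edgeR p under 0.05. That count was 4 without vehicle replicate 1 (1.97% of all genes there) and 5 without GSK3326595 replicate 1 (5.06%). DESeq2 called 5 higher, beside 1.1% of all genes (Ciita, Cxcl9, Gbp4, Gbp6 and Tgtp2). Ciita, the master regulator of MHC class II genes, had 0.5098, 0.408 and 1.13 CPM in vehicle and 16.5, 9.95 and 3.07 CPM in GSK3326595, without overlap (3.83 ± 0.73, edgeR adjusted p = 0.455, DESeq2 adjusted p = 1.38e-05). Cxcl9, a chemokine that attracts T cells, had 0.0637, 0.102 and 0.895 CPM in vehicle and 7.16, 10.4 and 2.09 CPM in GSK3326595, where the 2 lowest vehicle values are at or under the limit of 3 counts (4.18 ± 1.08, edgeR adjusted p = 0.458). Gbp4 differed by 1.85 ± 0.55 and Gbp6 by 2.56 ± 0.75. The symbol Gbp6 stands on 2 rows, of which the one with more reads is given, and counts of Gbp4 and Gbp6 were not whole in any library.

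Genes of MHC class I presentation and the immunoproteasome, which interferon gamma also induces, were higher in 12 of 12 (median 1.33). An unadjusted edgeR p under 0.05 was reached by 7 (58.3%, against 5.45% of all genes), and DESeq2 called 5, where it called 1.1% of all genes higher (B2m, Tap1, Psmb8, Psmb9 and Nlrc5). Psmb9, an immunoproteasome subunit, had 0.988, 1.497 and 1.85 CPM in vehicle and 9.32, 19.3 and 3.07 CPM in GSK3326595 (2.87 ± 0.68, edgeR adjusted p = 0.455). B2m, the light chain of MHC class I, had 182.5, 191 and 242.5 CPM in vehicle and 466, 582 and 284 CPM in GSK3326595 (1.11 ± 0.29). Tap1, a peptide transporter, and Nlrc5, the activator of MHC class I genes, differed by 2.12 ± 0.57 and 2.69 ± 0.71. In each of these 4 genes GSK3326595 replicate 3 was the lowest treated library and still lay above all vehicle libraries. The 3 treated libraries all lay above the vehicle ones in 6 of the 12 genes (50%), against 6.72% of all genes. This list, too, was chosen with earlier results of these data known. Whether the members and these lists differ was not tested.

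**Figure D5:**
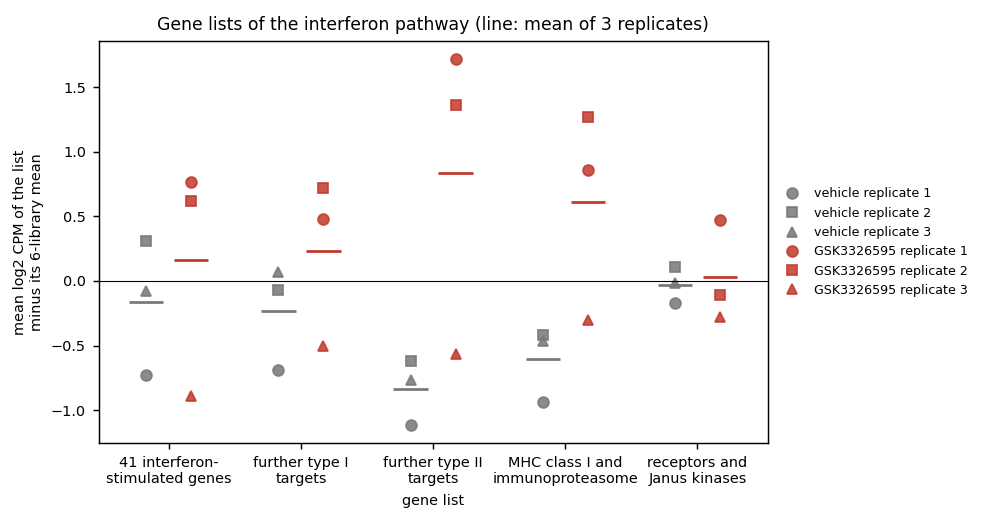
Mean log2 CPM of the tested genes of 5 lists (horizontal axis), minus that list's mean over the 6 libraries (vertical axis), with a symbol for each replicate and a line at each group's mean of 3. GSK3326595 replicates 1 and 2 lie above all vehicle libraries in the first 4 lists, and replicate 3 lies below all of them for the 41 members.

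Markers of other cell types were read beside these values as summed levels, in which the most abundant markers weigh most. All 5 tested T cell markers of 8 fixed had higher values, and the summed level of the 8 ranged from 3.97 to 6.63 CPM in vehicle and from 10.7 to 26.2 CPM in GSK3326595. The summed level of 8 NK cell markers ranged from 2.33 to 5.545 CPM in vehicle and from 5.05 to 14.7 CPM in GSK3326595, that of 5 plasmacytoid dendritic cell markers from 1.34 to 1.87 CPM in vehicle and from 4.33 to 9.93 CPM in GSK3326595, and that of 6 conventional dendritic cell markers from 7.201 to 11.1 CPM in vehicle and from 14.1 to 30.2 CPM in GSK3326595. By summed level the groups overlapped in the NK cell list only, and GSK3326595 replicate 3 was the lowest treated library in all 4 lists. Of the 8 NK cell markers, 5 (62.5%, against 6.72% of all genes) had every treated library above every vehicle library, while Gzma, Gzmb and Prf1 overlapped. The same separation was seen in 5 of 5 tested T cell markers, 3 of 4 tested plasmacytoid and 4 of 6 conventional dendritic cell markers. Ccr9, Clec9a, Zbtb46 and the untested Cox6a2 overlapped. Cd3d was at 0 in vehicle replicate 1 and Cd8b1 and Xcr1 in vehicle replicate 2. The summed level of 10 macrophage and Kupffer cell markers ranged from 322 to 464.5 CPM in vehicle and from 402 to 1002 CPM in GSK3326595, with GSK3326595 replicate 1 the highest. By gene, 8 of the 10 had a log2 difference above 0 and 2 below. In GSK3326595 replicate 1, however, Clec4f and Vsig4 were at 0.129 CPM each and Marco at 0.645 CPM, the lowest of all 6 libraries. The other markers of the list, Timd4 (36.2 CPM) among them, were highest in that library. The list's mean log2 CPM was highest in vehicle replicate 3, at 5.08. The summed level of 5 stellate cell and fibroblast markers also separated the groups, ranging from 53.3 to 160.5 CPM in vehicle and from 179 to 199.8 CPM in GSK3326595, with 5 of 5 higher. Taken singly, 0 of the 5 separated the groups. The list's mean log2 CPM overlapped as well, with 4.16 in vehicle replicate 3 and 3.87 in GSK3326595 replicate 3. The 5 endothelial cell markers summed from 76.15 to 134 CPM in vehicle and from 96.2 to 191 CPM in GSK3326595, the 4 B cell markers from 0.782 to 1.31 CPM in vehicle and from 0.7215 to 2.385 CPM in GSK3326595 and the 4 cholangiocyte markers from 7.615 to 20.2 CPM in vehicle and from 3.91 to 53.3 CPM in GSK3326595, each with overlap. The 5 neutrophil markers summed to 155.7 CPM in vehicle replicate 2 and to between 1.85 and 7.78 CPM in every other library. The 8 hepatocyte markers ranged from 21860 to 56800 CPM in vehicle and from 10180 to 36240 CPM in GSK3326595 with GSK3326595 replicate 3 the lowest, and Alb, which encodes albumin, had 9249, 11940 and 4985 against 10910, 11710 and 3157 CPM. The part of any of these cell types in the values of the interferon-stimulated genes was not tested.

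Library totals ranged from 25814339 to 33621083 expected counts, lowest in GSK3326595 replicate 3. On the first principal component of all genes, with 38.1% of the variance, GSK3326595 replicate 2 stood apart at 103 while the others lay between -50.2 and 9.37. Without that library the median member differed by 0.33, with 28 of 41 higher.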

How the data were processed

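Stranded total RNA libraries from 6 tumor samples were sequenced, and the authors deposited expected counts per gene (RSEM), of which 12.3% were not whole. The submitters' processing notes name cutadapt, STAR, Picard, RSEM and the build mm10. No source used here gives the release of the annotation. Expected counts were rounded to whole numbers, filtered with filterByExpr (minimum count 10) and tested with edgeR 4.0.16's quasi-likelihood test after TMM scaling, GSK3326595 against vehicle with 3 libraries each, in R 4.3.3, with Benjamini-Hochberg adjustment over all 17012 genes and a threshold of 0.05. The procedure was tested on simulated data. Limits from 3 counts cover counting error only. Positions (GRCm38) and exon lengths came from GENCODE M21, matched by stable gene ID (47224 of 47643 gene rows and all 41 members, 28 with the same version). Promoters came from RefSeq (GRCm38.p6).

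The members and lists were chosen with earlier results of these data known. All members are given by role; values in every library are given for a preset list of members, for those with an unadjusted p under 0.05 and for the 3 highest and 3 lowest differences. From each pathway list, up to 4 genes of smallest unadjusted p under 0.05 are named, besides Ifng, Ifnb1, Ifnar1, Ifngr1 and Socs1, and a result of the signalling list is not reported here; further members, and marker genes, were named after their values were seen. Alternatives were DESeq2 1.42.0, limma-voom (limma 3.58.1), other scalings and filters, the replicate number as a block, and fits without each library.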

Additional observations from a re-analysis of the deposited data

How the results depend on the processing

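With 3 libraries a group and a biological coefficient of variation of 0.409, adjusted p-values stayed far from the threshold (smallest of all genes 0.455). DESeq2 called 186 genes higher and 100 lower where edgeR called 0 of each; it called 0 members, as did every alternative run. The median member difference ran from 0.05 to 0.81 when each library was left out, the count of members higher at an unadjusted edgeR p under 0.05 from 1 to 13, and the count lower from 0 to 1. In these fits the share of all genes higher at such a p ran from 1.97% to 9.25%, and lower from 1.37% to 5.49%. The count of lower members was 0 with at least 1 CPM in 3 libraries and with limma-voom. The alternatives for the further type II list (4 to 9 genes) and the MHC class I list (7 to 10) were added after seeing the data. Across them, 1.97% to 9.25% of all genes were higher at an unadjusted p under 0.05.

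The samples were treated as unpaired, for the labels do not say whether same-numbered libraries belong together. Same-numbered libraries' deviations correlated at -0.0728, 0.0718 and 0.323, and not every library correlated best with its own number. With 3 libraries a group, these correlations cannot decide whether the samples were paired. With the replicate block, 1 member (Gbp3) was higher and 3 (Usp18, Ddx58 and Iigp1) were lower at an unadjusted edgeR p under 0.05, where 3.75% and 4.58% of all genes were, and the median member differed by 0.37.

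With limma-voom, Igtp was -0.36, Ifnar1 -0.025 and Socs1 0.83; with the replicate block, Irf1 was -0.0044, Igtp -0.37, Ifnar1 -0.029 and Socs1 0.058. Over the fits that each leave out a library, 16 members crossed 0; ranges, with 3 pathway genes, were Oasl2 -0.35 to 0.63, Irf9 -0.042 to 0.51, Igtp -0.63 to 0.56, Irf1 -0.18 to 0.28, Ifnar1 -0.33 to 0.24, Ifngr1 -0.32 to 0.29, Socs1 -0.83 to 0.44, Rsad2 -0.77 to 0.57, Iigp1 -1.50 to 0.38, Stat2 -0.42 to 0.079, Ifit3b -0.22 to 0.76, Oas1g -0.27 to 0.80, Oas2 -0.63 to 0.076, Oas3 -0.74 to 0.55, Rtp4 -0.0020 to 0.74, Xaf1 -0.13 to 0.55, Ifi44 -0.065 to 0.92, Ifi35 -0.27 to 0.20 and Irgm2 -0.38 to 0.38. The cause was not tested.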
